A study of Mus musculus with 6 samples.

Results

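The myosin and tropomyosin genes of cultured mouse granulocyte-monocyte progenitors are described here across 6 RNA-seq libraries. Members were taken by symbol alone: every row of the deposited count table whose name starts with Myo, Myh or Myl followed by a digit, and Tpm1 to Tpm4. This gave 53 of the 23337 genes in the table, made up of 24 unconventional myosin heavy chains, 14 conventional heavy chains, 11 light chains and 4 tropomyosins. No count entered that choice. The family was however proposed with results of these data known, among them the fall of Myh7b under the drugs. The values of Myh7b in drugs against vehicle are therefore given as a description with no p-value. Counts of called members below still include Myh7b, which went through the same fit as the other genes. All cells came from C57BL6 bone marrow, carried ER-HOXA9, in which the transcription factor HOXA9 is joined to an estrogen receptor, and grew in medium with stem cell factor and 0.5 µM beta-estradiol, which keeps the fusion active. The 3 groups of 2 replicates were untreated cells at day 0, cells given the solvent DMSO for 3 days (vehicle), and cells given 200 nM GSK-LSD1, 5 µM mercaptopurine and 5 µM cerulenin together for 3 days (the drugs). GSK-LSD1 inhibits the histone demethylase LSD1, mercaptopurine is a purine antimetabolite and cerulenin inhibits fatty acid synthase. The series calls the replicates biological but does not say whether they came from separate animals, cell lines or clones, so p-values measure the spread between these samples.

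Myosins are motors that use ATP to pull on actin filaments. Conventional (class II) myosins pair 2 heavy chains with essential and regulatory light chains and assemble into bipolar filaments that contract the cell cortex, while unconventional myosins carry cargo or link membranes to actin. Tropomyosins are coiled-coil dimers that lie along actin filaments and set which myosins and actin-binding proteins can reach them. In white blood cells the non-muscle class II myosin built on Myh9 serves cell shape, migration and division.

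Total counts ranged from 11305666 to 16948697 per library, and the members took 0.267% to 0.317% of them. The ribosomal RNA gene Rn45s took 20.4% and 24.6% of the totals at day 0. It took 16.1% and 14.6% in vehicle, and 15.7% and 15.9% under the drugs. Levels are given as normalised read counts in CPM (counts scaled to a common library size), and levels of different genes are compared only as CPM per kb of exon. The 10 progenitor markers, among them Mpo and Elane, were all detected at 1 CPM or more and summed to between 7600 and 11172 CPM in each library. Of 14 skeletal and cardiac muscle markers, 5 reached 1 CPM in some library and 5 were at 0 in all (Actc1, Tnnt3, Mb, Myog and Nppa), with sums between 34.8 and 46.8 CPM. Of 12 smooth muscle, fibroblast and endothelial markers, Col3a1, Dcn, Cdh5 and Kdr were at 0 in all libraries, and Pecam1 made up most of a sum of 191.9 to 281.6 CPM. Of the 7 macrophage markers C1qa and C1qc were at 0, and the sum went from 22.8 to 26.7 CPM in vehicle to 93.6 to 93.8 under the drugs. Mature neutrophil markers summed to 2.93 to 4.11 CPM in vehicle and 7.61 to 7.87 under the drugs. Mmp9 made up most of the latter, with a mean of 5.19 CPM against 0.12 in vehicle. Means of S100a8, Cxcr2, Ltf and Ngp were lower under the drugs, that of S100a9 was higher, and Camp and Retnlg were at 0. Lymphoid markers summed to 66.9 to 81.7 CPM in vehicle and 40.3 to 41.0 under the drugs. Most of this was Ebf1 (means 71.8 and 36.7), while Cd79a had means of 1.98 and 3.58. Erythroid markers summed to 1.79 CPM at most in any library. In bulk RNA, fewer cells of a type and less RNA per cell cannot be told apart, and the part of a change in cell makeup in the values below was not tested.

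Of the 53 members, 26 had enough counts to test and 27 did not. Those 27 were mostly muscle and sensory forms. Myl3, Myl7, Myl9, Myo3a, Myo3b, Myo5b and Myo7b had 0 counts in all 6 libraries. A further 19 had at most 8 counts in any library. They included the skeletal muscle heavy chains Myh1, Myh2, Myh4 and Myh8, the cardiac heavy chains Myh6 and Myh7, smooth muscle Myh11, the non-muscle form Myh14, Myo6, which walks towards the minus end of actin, the filopodial motor Myo10, and Tpm2. How reads with several matches were counted is not given, so the near-identical skeletal heavy chains are uncertain. The last untested member was the light chain Myl10, with 19 and 10 counts at day 0, 6 and 2 in vehicle, and 1 and 3 under the drugs.

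Per kb of exon the progenitors transcribed mainly the non-muscle set. With vehicle, Tpm3 had the highest level of all members, 180.2 ± 1.99 CPM per kb (SD, n = 2), followed by the regulatory light chain Myl12b (156 ± 38.6), the essential light chain Myl6 (146 ± 32.9) and Myh9 (125.5 ± 9.59). Tpm3 lay above Myl6 and Myh9 in both vehicle libraries and overlapped Myl12b, and the last 3 overlapped one another. Myl12a came next at 51.6 ± 10.6 CPM per kb, and the highest unconventional myosin was Myo1g, a membrane-tension motor of blood cells, at 32.6 ± 0.161. Myh9 made up 99.4% ± 0.0927 of the summed level of Myh9, Myh10 and Myh14 in vehicle, 99.3% ± 0.0907 at day 0 and 99.3% ± 0.00485 under the drugs. The muscle heavy chain Myh7b is outside that sum. It stood at 6.06 ± 0.384 CPM per kb in vehicle, above Myh10 at 0.774 ± 0.075.

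**Figure D1:**
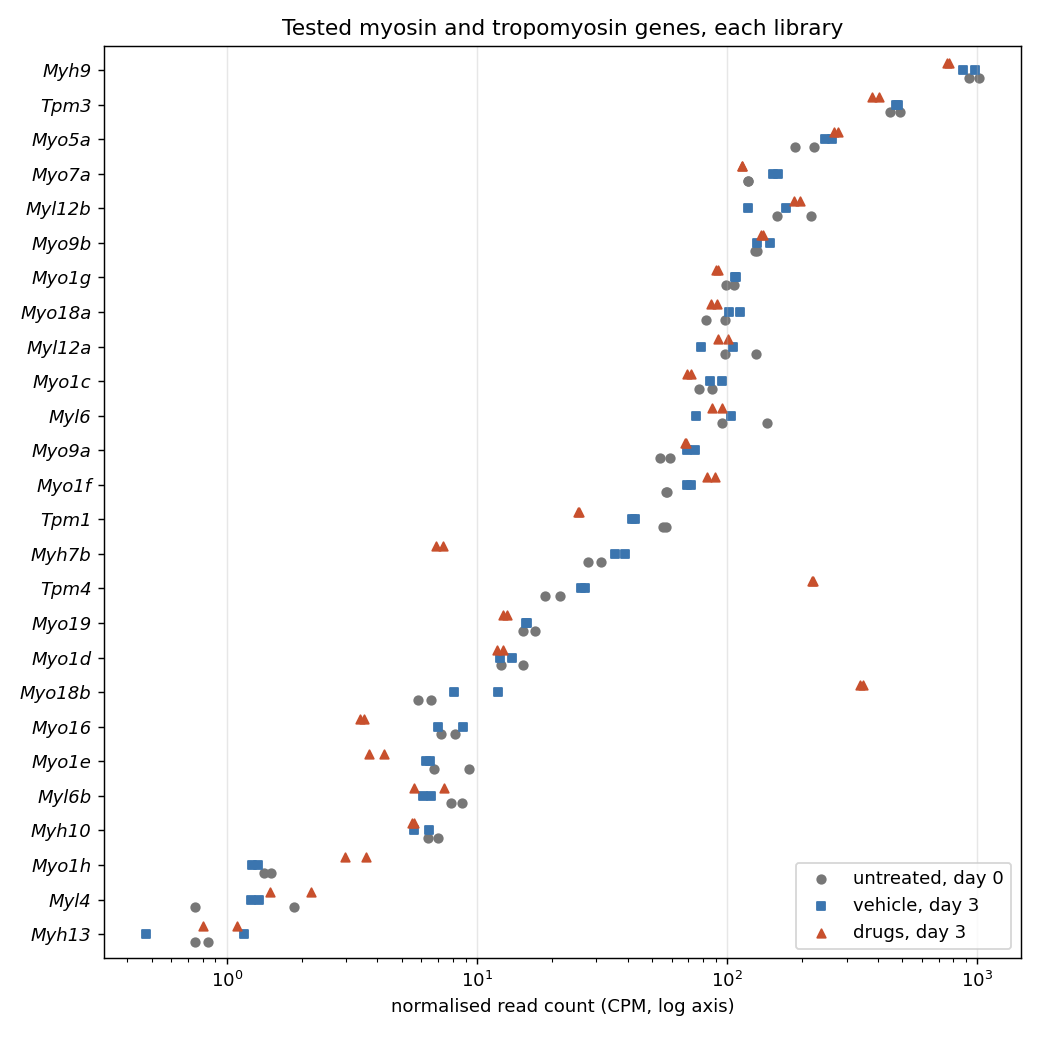
Normalised read count (CPM, log axis) of the 26 tested members in each of the 6 libraries, ordered by their mean in vehicle, with circles for untreated cells, squares for vehicle and triangles for the drugs. The drug libraries stand far to the right of the other 4 for Myo18b (349 and 340.3 CPM) and Tpm4 (218.7 and 220.1) and far to the left for Myh7b (7.29 and 6.84).

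The comparison of drugs against vehicle addressed what the combination did to transcripts on the same day. Of the 26 tested members 4 were higher and 10 lower under the drugs by the edgeR quasi-likelihood test at an adjusted p under 0.05. The other 12 were not called. Myh7b, whose fall was known beforehand, is among the 10. Over all 11283 tested genes 31.9% were called, 18.1% higher and 13.8% lower. The median log2 change of the tested members was -0.08, against 0.00075 for all tested genes. Without vehicle replicate 1 there were 6 lower members, without drug replicate 1 there were 5 and without drug replicate 2 there were 4. In 7 of the 26 tested members both drug libraries lay above both vehicle libraries, and in 13 below. Over all tested genes the shares were 35.1% above and 33.7% below. Because the family was chosen with such results known, nothing is read from these counts. Changes over 2-fold were those of Myo18b, Tpm4 and Myo1h upwards and of Myh7b and Myo16 downwards (over all genes 5.57% rose and 1.08% fell by that much).

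Among the tropomyosins Tpm4 rose and Tpm1 and Tpm3 were called lower, while Tpm2, with 1 count in all, was not tested. Tpm4 encodes a short non-muscle tropomyosin that is also abundant in platelets, and lies on chromosome 8 from 72135292 to 72153129 (mm10, plus strand). It stood at 21.5 and 18.6 CPM at day 0, 26.1 and 27.1 in vehicle, and 218.7 and 220.1 under the drugs. Both drug libraries lay far above the other 4. The 7 megakaryocyte and platelet markers summed to 33.4 to 44.5 CPM at day 0. The sums were 16.1 to 21.3 CPM in vehicle and at most 18.3 under the drugs. Most of this was Itga2b, with means of 32.6, 13.6 and 14.7 CPM. Itga2b was not called in drugs against vehicle (edgeR adjusted p = 0.725). Gp9 went from 3.00 and 3.93 CPM in vehicle to 0.64 and 0.52 under the drugs (log2 change -2.58 ± 0.336, edgeR adjusted p = 7.95e-05). The Tpm4 log2 change against vehicle was 3.04 ± 0.08 (SE), with an edgeR adjusted p of 3.02e-11. Tpm1, which encodes muscle and non-muscle tropomyosins by alternative promoters and splicing, lies on chromosome 9 from 67022593 to 67049213 on the minus strand. It had 57.1 and 55.4 CPM at day 0, 43.0 and 41.6 in vehicle, and 25.6 and 25.4 under the drugs. The 3 groups did not overlap. Tpm1 was lower by a log2 change of -0.41 ± 0.0761 in vehicle against day 0 (edgeR adjusted p = 0.00611) and by -0.73 ± 0.082 in drugs against vehicle (edgeR adjusted p = 2.12e-05).

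Tpm3, the most abundant tropomyosin gene, had 449.7 and 488.6 CPM at day 0, 474 and 481.6 in vehicle, and 377.8 and 405.6 under the drugs. The drug libraries were below all others. The log2 change against vehicle was -0.29 ± 0.0775 (edgeR adjusted p = 0.0134). It was no longer called when drug replicate 1 (adjusted p = 0.205) or 2 (0.0609) was left out. Set per kb, Tpm3 was 87.5% ± 0.101 of the tropomyosin total in vehicle and 56.6% ± 1.14 under the drugs, and Tpm4 went from 6.2% ± 0.104 to 40.4% ± 1.04. Tpm1 went from 6.27% ± 0.205 to 2.99% ± 0.107. The summed level of the 4 genes was 203.7 ± 9.04 CPM per kb at day 0, 205.9 ± 2.04 in vehicle and 260.9 ± 7.89 under the drugs. Counts per gene do not separate the splice forms of any of these genes.

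**Figure D2:**
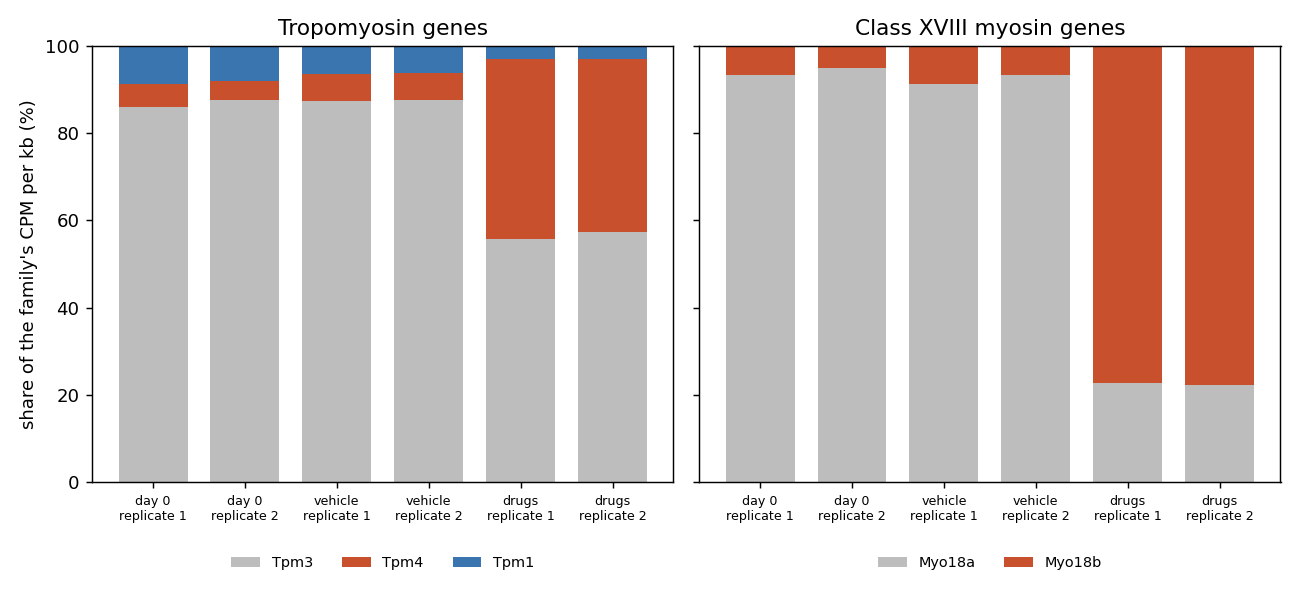
Share (%) of each gene in the summed CPM per kb of its family, one bar per library, for the tropomyosin genes (left; Tpm2 is not drawn, with 1 count in all) and the class XVIII myosin genes (right). Tpm4 reaches 41.1% and 39.7% of the tropomyosin total in the drug libraries against 4.26% to 6.28% in the other 4, and Myo18b reaches 77.2% and 77.6% of its pair.

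The stretches just before the starts of Tpm4 and Tpm1, which moved in opposite directions, and of Myh7b are shown to let the promoters be compared. Each is the 250 bases before the RefSeq start (GRCm38.p6, the assembly of mm10), written 5′ to 3′ on the gene's strand in lower case, with a GAGGAA match in capitals.
Tpm4, chr8:72135038-72135287, plus strand: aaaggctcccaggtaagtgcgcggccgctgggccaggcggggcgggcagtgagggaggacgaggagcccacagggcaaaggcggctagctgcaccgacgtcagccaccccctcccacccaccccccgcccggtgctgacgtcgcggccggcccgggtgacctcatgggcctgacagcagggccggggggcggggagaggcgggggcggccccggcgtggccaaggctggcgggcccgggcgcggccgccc
Tpm1, chr9:67049214-67049463, minus strand: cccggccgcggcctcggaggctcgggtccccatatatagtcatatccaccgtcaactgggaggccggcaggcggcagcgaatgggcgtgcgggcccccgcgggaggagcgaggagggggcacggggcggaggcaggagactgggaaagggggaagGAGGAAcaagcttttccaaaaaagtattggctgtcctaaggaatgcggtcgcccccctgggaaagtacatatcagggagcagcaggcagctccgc
Myh7b, chr2:155610993-155611242, plus strand: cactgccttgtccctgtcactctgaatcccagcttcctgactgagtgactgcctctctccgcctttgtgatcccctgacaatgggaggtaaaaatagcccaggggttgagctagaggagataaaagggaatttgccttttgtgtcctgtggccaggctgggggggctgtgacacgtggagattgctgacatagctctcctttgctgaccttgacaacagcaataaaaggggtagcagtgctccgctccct

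The GC content was 78.8% for Tpm4, 65.2% for Tpm1 and 53.6% for Myh7b. Both strands were searched for 3 motifs. These were the CArG box, to which the serum response factor SRF binds, GAGGAA, a core of sites for PU.1 and other ETS factors, and AAATCA, the core of the consensus of the GFI1 factors. Tpm1 had GAGGAA with its first base 95 bases before the start, and none of the 3 motifs was found in the stretches of Tpm4 and Myh7b. RefSeq promoters were matched for 47 members, 59 starts in all, and not for 6, among them Myh11, Myo18b, Myo1d, Myo5b and Myo7b. The CArG box occurred in 6 of the 59 (10.2%) and in 1.47% of all 32851 promoters of that length. Its holders were Myl3, Myl7, Myl9 and Myh4, which were at 0 or at 1 count, and the tested genes Myl6 and Myo1e. GAGGAA occurred in 23.7% of member promoters against 23.3% of all, and AAATCA in 5.08% against 12.4%. A match describes the letters in this window and is no evidence of binding. Counts per gene do not show which start a gene used, so the window of Tpm1 need not be the one in use.

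Myo18b had the largest change of any member. It encodes a class XVIII myosin known from the sarcomeres of striated muscle, and lies on chromosome 5 from 112688876 to 112896362 on the minus strand. Its counts were 109 and 70 at day 0, 153 and 97 in vehicle, and 4360 and 5273 under the drugs. In CPM these were 6.52 and 5.82, then 12.1 and 8.11, then 349 and 340.3. The drug libraries were many times above all others, and as a ratio the vehicle replicates differed from one another more than those of either other group. The log2 change in drugs against vehicle was 5.09 ± 0.121 (edgeR adjusted p = 1.02e-11). The gene on the same strand that ends 14116 bases upstream of it is Adrbk2, a G protein-coupled receptor kinase. Adrbk2 had 225.5 and 231.8 CPM in vehicle and 707 and 711 under the drugs, a log2 change of 1.63 ± 0.0748 (edgeR adjusted p = 5.81e-09). Per kb of exon Adrbk2 went from 29.8 and 30.7 to 93.5 and 94.1, and Myo18b from a mean of 1.22 ± 0.34 to 41.6 ± 0.762. Counts per gene cannot tell transcripts begun at Myo18b from transcripts running on from Adrbk2, and the part of the latter was not tested.

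Myo18a, the broadly expressed relative of Myo18b, had 82.0 and 97.7 CPM at day 0, 112.7 and 101.6 in vehicle, and 91.0 and 86.5 under the drugs. The drug libraries lay below those in vehicle and within the range at day 0. Its log2 change against vehicle was -0.27 ± 0.0881 (edgeR adjusted p = 0.0314). It was not called when vehicle replicate 1 (adjusted p = 0.189), drug replicate 1 (0.107) or drug replicate 2 (0.2) was left out, nor with the replicate number as a block (0.0684). Per kb Myo18b was 7.61% ± 1.46 of the pair in vehicle and 77.4% ± 0.3 under the drugs.

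Of the conventional heavy chains, Myh7b, Myh9, Myh10 and Myh13 had enough counts to test. Myh7b, a slow-muscle heavy chain gene that hosts the microRNA gene Mir499, had 27.9 and 31.3 CPM at day 0, 39.1 and 35.7 in vehicle, and 7.29 and 6.84 under the drugs. All 3 groups were apart, with the drug libraries lowest, at a log2 difference of -2.41 ± 0.119 from vehicle. Against day 0 the difference was -2.06 ± 0.121, also given with no p-value since it rests on the same drug libraries. In vehicle against day 0 it was 0.34 ± 0.098 and not called in the main fit. No p-value is given there either, since the vehicle libraries also entered the known fall. Some alternatives called Myh7b higher in that comparison. The opposite-strand neighbour Trpc4ap, whose end overlaps that of Myh7b, had 106.8 and 110.1 CPM in vehicle and 126.8 and 119.7 under the drugs. Mir499 had 0 counts in all libraries, in data enriched for polyadenylated RNA.

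Myh9, the main non-muscle heavy chain, had 930.2 and 1014 CPM at day 0, 975 and 875 in vehicle, and 769.9 and 758.5 under the drugs. The drug libraries were below the other 4. The log2 change in drugs against vehicle was -0.28 ± 0.0852 (edgeR adjusted p = 0.0256). It was not called when vehicle replicate 1 (adjusted p = 0.21), drug replicate 1 (0.171) or drug replicate 2 (0.185) was left out, nor with the replicate block (0.0658). Myh10, the second non-muscle heavy chain, had 5.61 and 6.44 CPM in vehicle and 5.61 and 5.49 under the drugs and was not called (log2 change -0.12 ± 0.17, edgeR adjusted p = 0.638). Myh13, a heavy chain of extraocular muscle, had between 6 and 17 counts per library and was not called in any comparison.

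The class I myosins, single-headed motors that tie membranes to actin, moved in both directions. Myo1f, which is found mainly in immune cells and serves neutrophil migration, had 57.2 and 57.5 CPM at day 0, 69.1 and 71.7 in vehicle, and 89.1 and 83.4 under the drugs. The groups did not overlap and each step was upwards. Its log2 change was 0.30 ± 0.0719 in vehicle against day 0 (edgeR adjusted p = 0.0259) and 0.29 ± 0.0701 in drugs against vehicle (edgeR adjusted p = 0.00689). Leaving out drug replicate 1 ended the second call (adjusted p = 0.122). The first was lost without any 1 library other than untreated replicate 2 (adjusted p between 0.0652 and 0.106), with the block (0.0722) and with DESeq2 (0.091). Adamts10, the gene before Myo1f on the same strand, had 9.33 and 10.6 CPM in vehicle and 25.6 and 27.2 under the drugs.

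Myo1g and Myo1c were lower under the drugs. Myo1g went from 107.3 and 108 CPM in vehicle to 90.4 and 91.8, below its 98.7 and 106.2 at day 0 (log2 change against vehicle -0.24 ± 0.0683, edgeR adjusted p = 0.017). Myo1c, a widely expressed motor of membrane traffic, went from 95.2 and 85.3 to 71.8 and 69.2, with 77.4 and 86.8 at day 0 (-0.36 ± 0.081, edgeR adjusted p = 0.00485). The call of Myo1g was lost without vehicle replicate 1 (adjusted p = 0.0525), drug replicate 1 (0.154) or drug replicate 2 (0.107), and that of Myo1c without drug replicate 2 (0.0627). Myo1e, a motor of endocytosis and cell adhesion, had 9.27 and 6.73 CPM at day 0, 6.48 and 6.27 in vehicle, and 3.68 and 4.26 under the drugs. The groups were apart. The log2 change against vehicle was -0.67 ± 0.206 (edgeR adjusted p = 0.0246), and leaving out any 1 of the 4 libraries compared lost that call (adjusted p between 0.0587 and 0.152).

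Myo1h rose by 1.32 ± 0.272 on the log2 scale under the drugs (edgeR adjusted p = 0.0026). It had 25 and 17 counts at day 0, 16 in each vehicle library, and 45 and 46 under the drugs. Part of Myo1h overlaps Kctd10 on the other strand, a gene with 870 to 1246 counts per library, and whether counting used strand is not given, so its low counts are uncertain. Kctd10 itself had 78.0 and 74.1 CPM in vehicle and 70.9 and 67.5 under the drugs. Myo1d stayed between 12.0 and 15.2 CPM and was not called (log2 change -0.08 ± 0.137, edgeR adjusted p = 0.687). Per kb, Myo1g fell from 45.9% ± 0.712 of the class I total in vehicle to 41.4% ± 1.19 under the drugs, while Myo1f went from 25.9% ± 0.962 to 33.8% ± 0.962.

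Among the other unconventional myosins, Myo16 and Myo7a were called lower under the drugs. Myo16, a myosin best known from neurons, had 8.14 and 7.15 CPM at day 0, 6.96 and 8.78 in vehicle, and 3.52 and 3.42 under the drugs. Both drug libraries were below the other 4, and the log2 change against vehicle was -1.18 ± 0.19 (edgeR adjusted p = 0.000457). Myo7a, a motor of hair-cell bundles that blood cells also transcribe, had 121 and 121.3 CPM at day 0, 159 and 152.3 in vehicle, and 114.8 in each drug library. Vehicle stood above both other groups. Its log2 change was 0.36 ± 0.0653 in vehicle against day 0 (edgeR adjusted p = 0.00522) and -0.44 ± 0.0655 in drugs against vehicle (edgeR adjusted p = 0.000235). Against day 0 the drug value of -0.08 ± 0.0657 was not called (edgeR adjusted p = 0.36).

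Myo5a, which carries vesicles and granules, had 186.4 and 222.2 CPM at day 0, 263 and 246.2 in vehicle, and 267.5 and 277.8 under the drugs. Myo9a and Myo9b are motors that carry a GTPase-activating domain. Myo9a had 53.7 and 58.8 CPM at day 0, 74.4 and 68.9 in vehicle, and 68.4 and 67.8 under the drugs, and Myo9b stayed between 128.8 and 148.9. None of these 3 was called in drugs against vehicle (log2 changes between -0.07 and 0.10, edgeR adjusted p between 0.419 and 0.812). Myo19, which moves mitochondria, had 15.7 and 15.8 CPM in vehicle and 12.7 and 13.2 under the drugs, and was not called (-0.28 ± 0.118, edgeR adjusted p = 0.0882). Myo19 overlaps Pigw and Znhit3 on the other strand.

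**Figure D3:**
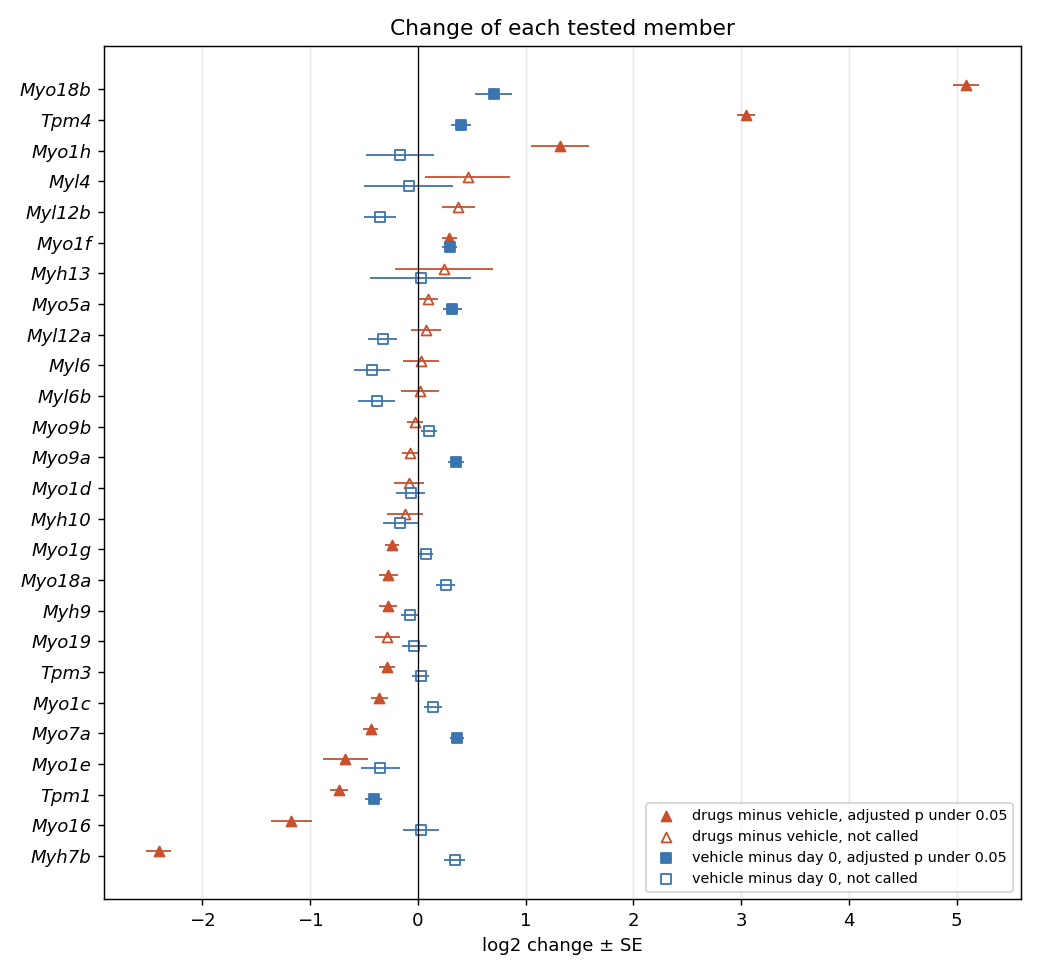
Log2 change ± SE of the 26 tested members in drugs minus vehicle (triangles) and vehicle minus day 0 (squares). Filled symbols had an adjusted p under 0.05, Myh7b in drugs minus vehicle among them though its fall was known beforehand. Myo18b (5.09), Tpm4 (3.04) and Myh7b (-2.41) lie outside the cluster around 0 in drugs minus vehicle, whereas every change in vehicle minus day 0 lies between -0.43 and 0.71.

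No light chain was called in any comparison of the main fit, though some alternatives called Myl6, Myl12b or Myl12a. Several alternatives also called Myl10, untested in the main fit, lower in drugs against day 0. In Myl6, Myl12b and Myl12a the replicates differed widely at day 0 and in vehicle. Myl6, the essential light chain of non-muscle and smooth muscle myosin, had 144.2 and 95.1 CPM at day 0, 75.4 and 104 in vehicle, and 87.2 and 95.8 under the drugs. Myl12b, a regulatory light chain whose phosphorylation activates class II myosin, had 215.7 and 158.2 CPM, then 121.2 and 172.5, then 185.3 and 195.3. Myl12a, its close relative and neighbour on chromosome 17, had 130.9 and 98.4 CPM, then 78.5 and 105.3, then 92.0 and 101.1. In each gene replicate 1 was the higher one at day 0 and the lower one in vehicle. The log2 changes in drugs against vehicle were 0.03 ± 0.168 for Myl6, 0.38 ± 0.15 for Myl12b and 0.07 ± 0.137 for Myl12a, and none was called (edgeR adjusted p = 0.908, 0.075 and 0.719). Myl12b was called higher with no filter (edgeR adjusted p = 5.48e-05) or with only the 2 groups compared (0.0274). It was also called higher without vehicle replicate 2, untreated replicate 1 or untreated replicate 2. In drugs against day 0 Myl6 changed by -0.39 ± 0.165 and was not called (edgeR adjusted p = 0.0691). It was called lower there with no filter (6.18e-06) or with only the 2 groups compared (0.0305).

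Replicates also differed by exon length over all genes. Among genes averaging at least 10 CPM, the 522 with at most 1000 bp of exon differed between replicates 1 and 2 by a median log2 of 0.31 at day 0, -0.24 in vehicle and -0.07 under the drugs. The 1648 genes over 1000 and up to 2000 bp, the class of Myl12a at 1779 bp, differed by 0.10, -0.09 and -0.03, less than Myl12a itself (0.41, -0.42 and -0.13). The 2778 genes over 4000 bp differed by -0.10, 0.10 and 0.02. Myl6, at 614 bp, differed by 0.60, -0.46 and -0.13, whereas the low Myl6b, at 1026 bp, went the other way (-0.14, 0.10 and 0.36). Against day 0 the median log2 change in vehicle was -0.22 in the short class and 0.09 in the long one. The changes of the light chains in that comparison, -0.43 ± 0.166 for Myl6, -0.35 ± 0.15 for Myl12b and -0.33 ± 0.136 for Myl12a, were not called (edgeR adjusted p between 0.136 and 0.167), but each was called lower without untreated replicate 2 (0.00299 to 0.0121) or vehicle replicate 2 (0.0211 to 0.0359). The part of transcript length in them was not tested. Myl6b and Myl4, the remaining light chains with enough counts, stood at 5.61 to 8.73 and 0.75 to 2.16 CPM and were not called in any comparison. Per kb the share of Myl12b in the regulatory light chains, 75.1% ± 0.788 in vehicle and 78.9% ± 0.487 under the drugs, varied less than either level.

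**Figure D4:**
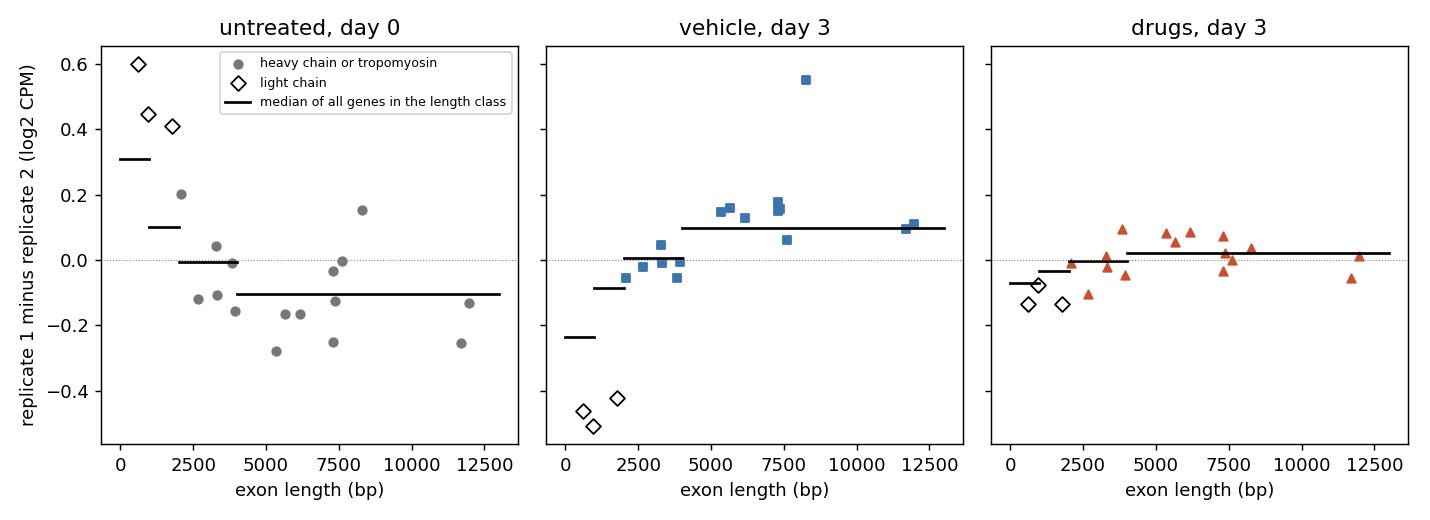
Difference between replicate 1 and replicate 2 (log2 CPM) against exon length (bp) for members averaging at least 10 CPM, in each group, with light chains as open diamonds and black lines for the median of all such genes in 4 length classes. The 3 light chains lie at 0.41 to 0.60 at day 0, -0.51 to -0.42 in vehicle and -0.13 to -0.08 under the drugs.

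The comparison of vehicle with day 0 addressed what 3 days of culture in solvent did. Of the 26 tested members 6 rose (Myo1f, Myo18b, Myo7a, Tpm4, Myo9a and Myo5a) and 1, Tpm1, fell, while 19 were not called. Without untreated replicate 2 there were 5 falls and without vehicle replicate 2 there were 4, the light chains included. Over all genes 7.74% were called, 3.75% higher and 3.99% lower. Myo18b rose by 0.71 ± 0.173 on the log2 scale (edgeR adjusted p = 0.0264), Tpm4 by 0.40 ± 0.093 (0.0213), Myo9a by 0.35 ± 0.0771 (0.0154) and Myo5a by 0.32 ± 0.0872 (0.0429). Only Myo7a among the rises, and the fall of Tpm1, were called without each library in turn. Without vehicle replicate 1 the other 5 rises were not called (edgeR adjusted p = 0.308 for Myo18b, 0.0734 for Tpm4, 0.115 for Myo9a, 0.234 for Myo5a and 0.0716 for Myo1f), which left 1 rise. Without untreated replicate 1 there were 2 rises, with adjusted p of 0.0772 for Myo18b, 0.114 for Myo9a and 0.254 for Myo5a. Without drug replicate 1 or 2 there were 3, and with the replicate block also 3 (0.054 for Tpm4 and 0.098 for Myo5a). The exons of Myo5a, Myo9a, Myo7a and Myo18b all exceed 4000 bp, the class with the median of 0.09 given above.

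Drugs were also set against day 0, a comparison that shares its libraries with the other 2. In it 6 of the 26 tested members were higher and 8 lower (over all genes 43.9% were called, 22.7% higher and 21.2% lower). Myh7b is among the 8. The log2 changes were 5.79 ± 0.127 for Myo18b, 3.44 ± 0.0816 for Tpm4, -1.14 ± 0.0794 for Tpm1, -1.15 ± 0.187 for Myo16, -1.02 ± 0.193 for Myo1e and 0.59 ± 0.0705 for Myo1f (edgeR adjusted p between 4.51e-12 and 0.00103). The 8 lower members became 5 without drug replicate 1 or drug replicate 2, when Myl10 was added and Myh9 (adjusted p = 0.0679 and 0.0677), Tpm3 (0.217 and 0.0575), Myo1c (0.14 and 0.216) and Myo19 (0.191 and 0.131) were not called.

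Genes that work beside the members were counted from lists chosen by function, to be read against the 18.1% of all tested genes called higher and 13.8% called lower in drugs against vehicle. Of 4 tested actin genes 1 fell, Actb (-0.31 ± 0.0887, edgeR adjusted p = 0.0183). That call was lost without vehicle replicate 1 or 2 (0.104 and 0.0652) or drug replicate 1 or 2 (0.223 and 0.123). Of 33 tested genes of actin filament assembly 6 rose and 8 fell. Diaph2, a formin listed in the table as Diap2, rose by 1.46 ± 0.099 and Capg, which caps filament ends, by 1.20 ± 0.111 (edgeR adjusted p = 2.01e-07 and 3.61e-06). Of 15 tested crosslinking and side-binding genes 1 rose, Lcp1, a bundling protein of white blood cells (0.54 ± 0.0775, edgeR adjusted p = 0.000171), and 2 fell.

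Among 18 tested chaperones, calmodulins and cargo adaptors, 1 rose and 4 fell under the drugs. Calcoco1 rose by 0.94 ± 0.117 (edgeR adjusted p = 5.07e-05). Of 3 tested SRF and MRTF genes, which drive many actin and myosin genes, Srf fell (-0.31 ± 0.0747, edgeR adjusted p = 0.00735; 0.0831 and 0.0579 without drug replicate 1 or 2) and Mkl2 rose (0.34 ± 0.0922, edgeR adjusted p = 0.014). The call of Mkl2 was lost without vehicle replicate 2 (0.0659) or drug replicate 1 or 2 (0.123 and 0.0609). The median log2 change of these 5 lists lay between -0.17 and -0.06. Over all lists, 1 of them not described here, 9 of 90 tested genes rose and 17 fell (18.1% and 13.8% of all genes). The number of falls dropped without drug replicate 1 or 2 and grew without untreated replicate 1 or 2, and the number over all genes moved the same way. In vehicle against day 0, 6 of the 90 rose and 4 fell (3.75% and 3.99% of all genes), among them the endocytic adaptor Dab2, which went from 88.3 and 83.2 CPM to 43.2 and 41.4. Without untreated replicate 1 these became 2 and 2, and without vehicle replicate 1 or either drug replicate 3 and 1. Without untreated replicate 2 there were 11 rises.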

How the data were processed

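Polyadenylated RNA of 6 cultures was sequenced. For 23337 genes, the deposited file gives gene-level read counts made by the authors. The submitters' processing notes name STAR 2.7.0f, deepTools 3.0.2 and mm10; featurecount is the name the labels give the table. The sources used here do not give the strand setting, the handling of multiple matches or the annotation release. The Length column, in base pairs as deposited, served for CPM per kb.

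Low-count genes were removed with filterByExpr, which left 11283. All 3 groups were fitted together with TMM scaling and the quasi-likelihood F test of edgeR 4.0.16 (R 4.3.3), with 3 residual degrees of freedom and Benjamini-Hochberg adjustment over all tested genes, called at 0.05. SEs derive from the F statistic. Replicates differed by more than counting error (chi-square per degree of freedom 6.49, 4.20 and 1.70 for day 0, vehicle and drugs, without Rn45s). Steps were tested on simulated data. Values in every library are given for members averaging at least 10 CPM in a group, and for those called with a change over 2-fold and at least 1 CPM. From each pathway list up to 4 called genes per comparison were eligible (smallest p, largest change). Members and lists were chosen with earlier results of these data known. Promoters are RefSeq's (GRCm38.p6). No column of per-sample values was left out. Alternatives were other scalings and filters, DESeq2, a replicate block, only the groups compared, a minimum fold and leaving out each library. The results of 1 pathway list and of 1 member are not reported here.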

Additional observations from a re-analysis of the deposited data

How the results depend on the processing

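Among the tested members and the other genes run singly under the alternatives, every call kept its direction. Of 2067 single-gene values under 15 alternatives, 1840 kept their side of the threshold, 174 lost a call and 53 gained one. Myo18b, Tpm4, Myo16 and Myo1h stayed past it in drugs against vehicle under all 15. Against a minimum of 1.5-fold 3 members were called higher and 2 lower in drugs against vehicle. There were 0 and 0 in vehicle against day 0, and 2 and 3 in drugs against day 0. Over all 11283 tested genes 599 were higher and 115 lower, then 23 and 33, then 647 and 239. In the lists 4 genes were higher and 0 lower in drugs against vehicle, and 0 and 1 in vehicle against day 0. Scaling by library totals, which moved the median of all genes to 0.10 in vehicle against day 0, gave 11 members higher there and 5 lower in drugs against day 0, and 25 list genes higher and 1 lower in vehicle against day 0. Over all genes the split there was 1741 higher and 216 lower, against 423 and 450. No filter gave 4 members lower and 10 list genes higher in vehicle against day 0. Only the groups compared gave 2 members higher, 3 list genes higher and 1 lower there, and 28 list genes lower in drugs against vehicle. DESeq2 gave 7 members lower in drugs against vehicle. Myo1g, Myo18a and Myo1e were lost there (DESeq2 adjusted p = 0.0586, 0.0653 and 0.0789). In drugs against day 0 it gave 6 members lower, without Myo1c and Myo19. It gave 3 list genes higher and 2 lower in vehicle against day 0. The causes were not tested.

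With the replicate block 3 members and 3 list genes were higher and 1 list gene lower in vehicle against day 0, and 10 list genes were lower in drugs against vehicle. Replicate numbers are not said to pair the cultures, and deviations with the same number correlated at 0.112 (drugs and vehicle), -0.281 (vehicle and day 0) and -0.0725 (drugs and day 0) across genes. Without each library in turn, members called were 3 to 5 higher and 4 to 10 lower in drugs against vehicle, 1 to 7 and 1 to 5 in vehicle against day 0, and 5 to 6 and 5 to 10 in drugs against day 0. List genes were 7 to 11 higher and 3 to 28 lower, then 2 to 11 and 1 to 6. Where this left 1 sample in a group, that sample was assumed to vary like the others. Leaving out Rn45s was added after the data were seen.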

Other observations

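Of the 14 skeletal and cardiac muscle markers 5 had enough counts to test, and under the drugs 1 was called lower and 1 higher against vehicle. Ckm, the muscle creatine kinase, had 25.8 and 19.8 CPM at day 0, 17.5 and 19.8 in vehicle, and 20.4 and 22.7 under the drugs, and was not called (log2 change 0.21 ± 0.135 in drugs against vehicle, edgeR adjusted p = 0.262). Tnnt2, the cardiac form of troponin T, which binds tropomyosin on the thin filament, had 13.8 and 10.5 CPM at day 0, 12.6 and 16.6 in vehicle, and 5.37 and 5.42 under the drugs. Both drug libraries were below the other 4, and the log2 change against vehicle was -1.43 ± 0.184 (edgeR adjusted p = 6.7e-05). Ryr1, the calcium release channel of skeletal muscle, went the other way, from 2.53 and 2.01 CPM in vehicle to 4.09 and 3.42 (log2 change 0.71 ± 0.243, edgeR adjusted p = 0.0409), with 1.68 and 2.08 at day 0. Acta1 and Tnni3 were not called (log2 changes -0.41 ± 0.217 and 0.0021 ± 0.306). Of these genes only Tnnt2 was run under the alternatives, leaving out each library among them. Its log2 change in drugs against vehicle lay between -1.62 and -1.24 under all 15.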
